A study of Homo sapiens with 12 samples.

Results

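The ATP-binding cassette (ABC) family was followed in 12 RNA-sequencing libraries from SUDHL6 and SUDHL16, established cell lines of diffuse large B-cell lymphoma (DLBCL). Members were the protein-coding genes whose GENCODE 44 symbol is ABC, a letter from A to G and a number, which gave 45 of 19586 protein-coding genes and 60675 identifiers in the files. GENCODE 44 lists 46 such genes, and the readthrough gene ABCF2-H2BK1 was not analysed here. Values and counts below are for 43 of the 45 members. The 4 groups, SUDHL6-parental, SUDHL6-resistant, SUDHL16-parental and SUDHL16-resistant, had 3 libraries each. The resistant cells came from their own parental line through long exposure to rising doses of venetoclax (ABT-199), an inhibitor of the survival protein BCL2, until they grew at 10 or more times the original IC50 (the standard dose measure of a drug's effect on the cells). They were then kept in venetoclax, and no gene was altered by design. Each resistant line is a selected population from 1 parental line, and nothing in the labels says that the 3 libraries of a group came from separate cultures, so p-values here measure the spread between libraries, which may be technical. The library kit was NEBNext Ultra II for SUDHL6 and Illumina Stranded Total RNA for SUDHL16, and the sequencers differed as well. Line, kit and instrument therefore cannot be told apart, and resistant cells were compared with parental cells within each line.

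ABC proteins bind and split ATP, and most of them use that energy to move a substrate across a membrane. Subfamilies A and G hold many lipid and sterol transporters, B and C hold the multidrug efflux pumps beside mitochondrial, lysosomal and channel-regulating proteins, and D holds the importers of fatty acids into peroxisomes. Subfamilies E and F have no membrane part and act on ribosomes and translation. Efflux pumps of subfamilies B, C and G are known for lowering the drug content of tumour cells, and venetoclax is a known substrate of the pumps encoded by ABCB1 and ABCG2.

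Library totals were 33992784 to 40885665 counts in SUDHL6 and 14335460 to 22068221 in 5 of the SUDHL16 libraries. The parental SUDHL16 library CE-26 stood apart with 4131927 counts, with 55.4% of them on protein-coding genes (84.3% to 90.2% elsewhere in SUDHL16) and 31.9% on identifiers that GENCODE 44 lacks. The 43 members took 0.127% to 0.129% of counts in SUDHL6, 0.0972% to 0.115% in the other SUDHL16 libraries and 0.0714% in CE-26. CE-26 had a count for 40 of them, whereas the other SUDHL16 libraries had one for 25 to 31. Of the 8 members with at most 3 counts in each of those 5 libraries, 7 had a count in CE-26, and so had 66.1% of the 5654 protein-coding genes at that level. The SUDHL16 changes of members that passed the count filter are therefore given with and without CE-26. The 8 B-cell markers were detected in all 4 groups, with summed levels of 4237 to 4315 CPM (counts scaled to library size) in SUDHL6-parental, 4443 to 4471 in SUDHL6-resistant, 2834 to 4324 in SUDHL16-parental and 4406 to 4472 in SUDHL16-resistant libraries, and the lowest of these was CE-26. Summed T-cell markers reached 13.7 CPM in SUDHL16-resistant cells and myeloid, stromal, epithelial and hepatocyte markers at most 1.86 CPM in every group but SUDHL16-parental, where CE-26 gave up to 13.8 CPM. CD3E, a T-cell receptor subunit, carried the T-cell sum in SUDHL16-resistant cells (12.4 CPM, adjusted p = 0.0455), while CD3D was at 0 there, and the B-cell marker MME was lower in SUDHL6-resistant cells (108 to 53.5 CPM, adjusted p = 3.92e-10). KRT18, an epithelial keratin, was called higher there at 0.657 CPM (adjusted p = 0.0465). The part of these markers in the results below was not tested. In bulk RNA, fewer cells of a kind and less RNA per cell cannot be told apart.

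Length sets how many reads a gene yields, so levels were compared between members as CPM per kb of merged exons. The members that act on translation led. ABCF1, which takes part in translation initiation, was the highest in SUDHL6 with 66.4 ± 1.54 CPM per kb in parental and 61.4 ± 0.827 in resistant cells (SD, n = 3), and it held 32.6% and 31.1% of the summed level of the 43 members. ABCE1, the ribosome recycling factor, followed with 31.6 ± 0.27 and 32.5 ± 0.418 CPM per kb. In SUDHL16-parental cells ABCE1 (18.6 ± 5.89 CPM per kb) and ABCF1 (17.8 ± 1.2) did not differ beyond their spread, and without CE-26 they were at 22.9 ± 4.06 and 18.6 ± 1.68 (SD, n = 2). In SUDHL16-resistant cells ABCF1 (16.8 ± 3.27), ABCB10 (16.4 ± 2.67), ABCC1 (15.3 ± 0.551) and ABCE1 (14.6 ± 2.95) lay within their spread of each other. Of the members reported, the highest of the other subfamilies were ABCA7, a lipid transporter, with 11.03 and 15.3 CPM per kb in SUDHL6-parental and SUDHL6-resistant cells and 7.34 and 8.71 in the SUDHL16 groups, and ABCB10, a mitochondrial inner membrane transporter, with 13.1, 10.5, 14.4 and 16.4 in the same order. Subfamily C was led by ABCC4 in SUDHL6-parental cells (15.1 ± 0.0727) and by ABCC1 in the other groups (12.001 in SUDHL6-resistant, 10.1 in SUDHL16-parental). The lead over ABCC10 in SUDHL16-parental cells (10.1 ± 2.53 against 8.66 ± 1.58) was within the spread and turned with canonical transcript length (13.6 for ABCC1, 13.9 for ABCC10). Subfamily D was led by ABCD4, which carries cobalamin out of lysosomes, in SUDHL6 (5.98 and 6.22) and SUDHL16-resistant cells (5.48), and by ABCD3 in SUDHL16-parental cells (9.9 ± 2.52). The levels of ABCD3 and ABCD4 lay within their spread in SUDHL16-parental (ABCD4 at 7.35 ± 3.83) and SUDHL16-resistant cells, and with canonical length ABCD4 led in SUDHL16-parental cells (21.6 against 21.02). Subfamily G was near 0, with ABCG1 at 0.21 and 0.223 CPM per kb in SUDHL6 and 0.0484 in SUDHL16-resistant cells.

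**Figure D1:**
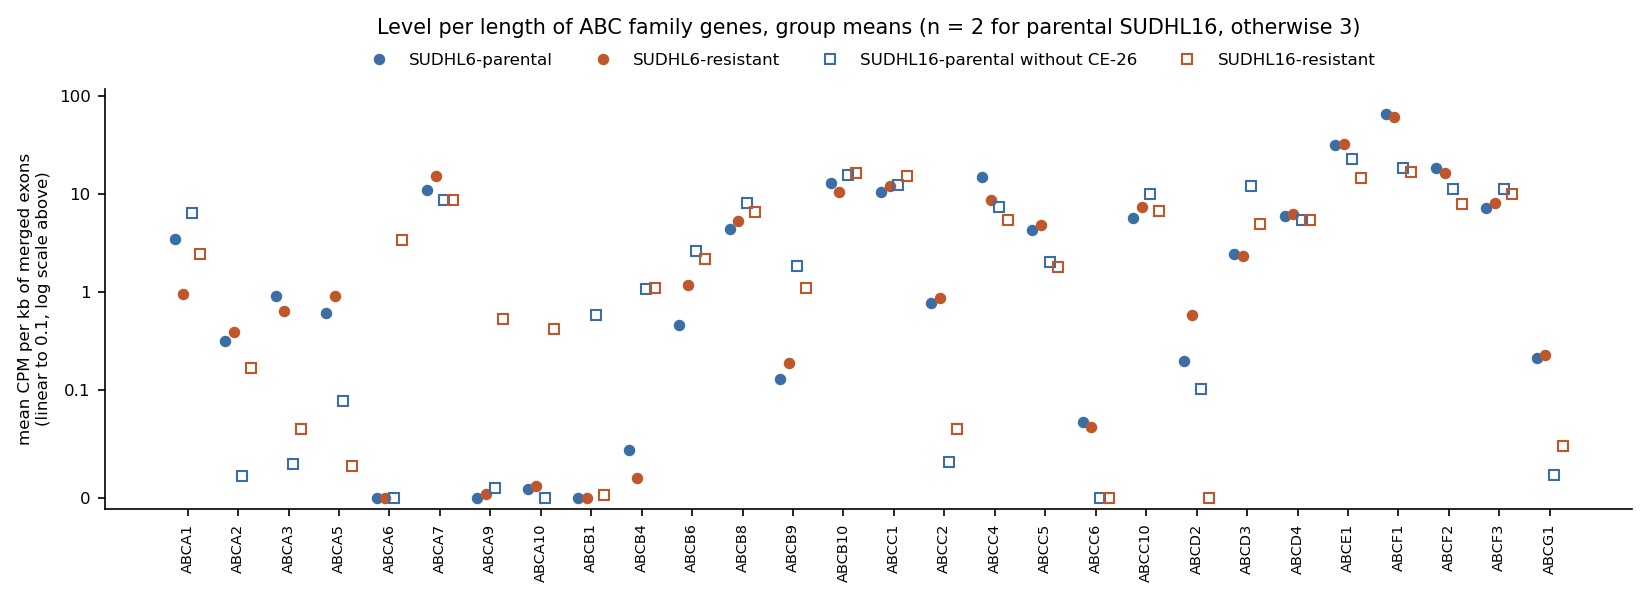
Mean level per length (CPM per kb of merged exons, linear to 0.1 and on a log scale above) of the members that reached 0.05 in a group, for parental (blue) and resistant (orange) cells of SUDHL6 (filled) and SUDHL16 (open, parental without CE-26). ABCF1 and ABCE1 were the highest in SUDHL6, while ABCA6, ABCA9 and ABCA10 rose from near 0 in SUDHL16-resistant cells and ABCB1 fell to near 0.

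Of the 43 members, 14 had at most 3 counts in each of the 6 SUDHL6 libraries, and 10 of these had none: ABCA4, ABCA6, ABCA13, ABCB1, ABCB5, ABCB11, ABCC12, ABCG2, ABCG5 and ABCG8. In SUDHL16 without CE-26, 8 members had at most 3 counts in each library (ABCA4, ABCA12, ABCB5, ABCC6, ABCC8, ABCC12, ABCG5 and ABCG8), and ABCA4, the retinal transporter, was at 0 in all 12 libraries. The count filter was passed by 23 members in SUDHL6, 23 in SUDHL16 and 24 in SUDHL16 without CE-26. A member was called where edgeR gave an adjusted p under 0.05 over all genes tested and a change of at least 1.5-fold.

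In SUDHL6, 4 of the 23 members tested were called. ABCB6 and ABCD2 rose and ABCA1 and ABCC4 fell in resistant cells, whereas 8.96% of the 16662 genes tested were called (4.31% raised, 4.65% lowered). The median log2 fold change of the 23 members tested was 0.17 and 15 of them were higher in resistant cells, beside a median of -4.34e-05 over all genes tested. A further 12 members had an adjusted p under 0.05 with a smaller change, so that 16 of 23 passed on p alone, as did 37.3% of all genes tested. In SUDHL16, edgeR called 0 of the 23 members tested, beside 5.30% of 15708 genes (3.20% raised, 2.10% lowered). An unadjusted p under 0.05 was found for 5 members and for 19.1% of all genes tested. DESeq2 called 1 (ABCD3), beside 11.3% of all genes, and voom with quality weights called 5 (ABCA1, ABCA6, ABCA9, ABCA10 and ABCD3), beside 16.9%. The median of the 23 members tested was -0.16, with 9 higher, against -0.02 over all genes. Without CE-26, 5 of the 24 tested were called, beside 10.0% of 16280 genes (6.73% raised, 3.32% lowered): ABCA6, ABCA9 and ABCA10 rose and ABCB1 and ABCD3 fell. The median was then -0.09, with 10 of 24 higher, against 0.05 over all genes. The spread between replicates differed between the lines, with a biological coefficient of variation of 0.0516 in SUDHL6, 0.468 in SUDHL16 and 0.339 in SUDHL16 without CE-26.

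Of the 10 drug efflux pumps, 5 passed the filter in SUDHL6 and 1 was called, beside 8.96% of all genes tested. ABCC4, a pump for cyclic nucleotides, conjugates and several drugs, stood at 130.0, 131 and 129.6 CPM in parental and 73.1, 77.0 and 73.8 CPM in resistant SUDHL6 libraries. The groups did not overlap, and the level fell 1.74-fold (log2 fold change -0.80, SE 0.03, adjusted p = 3.92e-10). In SUDHL16 the ABCC4 values were 57.0, 37.5 and 62.3 CPM in parental and 49.4, 44.9 and 46.6 in resistant libraries, which overlapped (-0.16, SE 0.24, adjusted p = 0.79, and -0.33, SE 0.20, adjusted p = 0.371 without CE-26, when they did not overlap). ABCC1, which exports glutathione conjugates and anthracyclines, was at 93.5, 91.6 and 92.0 CPM in parental and 106, 103 and 106 CPM in resistant SUDHL6 libraries. The groups did not overlap and the difference passed on p, but it was only 1.13-fold (0.18, SE 0.03, adjusted p = 0.000103). In SUDHL16, ABCC1 was at 101.2, 63.0 and 101.5 CPM in parental and 132, 139.6 and 131 CPM in resistant libraries, without overlap and not called (0.59, SE 0.26, adjusted p = 0.254, and 0.41, SE 0.20, adjusted p = 0.253 without CE-26).

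ABCC10, a broad pump that includes taxanes among its substrates, rose in SUDHL6 by less than the fold limit, from 44.1, 44.6 and 48.6 CPM to 57.6, 61.0 and 59.3 CPM (0.37, SE 0.04, adjusted p = 1.29e-05). Its SUDHL16 values of 72.0, 56.5 and 81.7 CPM in parental and 63.6, 59.7 and 41.0 CPM in resistant libraries overlapped (-0.36, SE 0.26, adjusted p = 0.513), and without CE-26 they did not overlap (-0.48, SE 0.25, adjusted p = 0.296). ABCC5, a cyclic nucleotide pump, went from 48.5, 47.9 and 48.9 CPM to 54.8, 53.7 and 57.3 CPM in SUDHL6 (0.19, SE 0.03, adjusted p = 0.000668). In SUDHL16 it was at 20.4, 28.2 and 23.2 CPM against 17.4, 24.8 and 18.8 CPM, and the groups overlapped (-0.23, SE 0.27, adjusted p = 0.717, and -0.09, SE 0.26, adjusted p = 0.879 without CE-26). ABCC2, the canalicular conjugate pump, was low, at 5.52, 5.49 and 6.86 CPM against 7.48, 5.65 and 7.30 CPM in SUDHL6 (0.19, SE 0.13, adjusted p = 0.3). Its counts in SUDHL16 were at or below 0.753 CPM outside CE-26 (3.44 CPM), and its fitted change turned from -1.19 (SE 1.76) to 0.95 (SE 1.66) without CE-26.

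ABCB1 encodes P-glycoprotein, the best-known multidrug pump. It had no count in any SUDHL6 library, which allows at most 0.0276 CPM over the parental group and 0.0257 CPM over the resistant group (3 counts, counting error only). In SUDHL16 it was low and was found in parental cells, with 62 and 58 counts (3.42 and 3.60 CPM) in CE-25 and CE-27, 0 in CE-26, and 0, 1 and 0 counts in the resistant libraries. At the depth of CE-26 a count of 0 allows up to 1.03 CPM. With CE-26 the gene did not pass the filter, and without a filter its adjusted p was 0.17. Without CE-26 the groups did not overlap and ABCB1 was called lower in resistant cells (adjusted p = 0.00256), with 208-fold less in resistant cells over the summed counts of 120 and 1 (95% exact counting interval 36.6 to 8282, which covers counting error only). The gene passed the filter there only through CE-25 and CE-27, and the library left out was the parental one with no count. The call and the lack of overlap therefore depend on that removal.

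The other pumps were at or near 0. ABCG2, the breast cancer resistance protein, had no count in SUDHL6 and, in SUDHL16, 4 counts in CE-27, 12 in CE-26 and none in the other 4 libraries. ABCB5 had no count outside CE-26, where it had 15. ABCC3 and ABCC11 were at most 0.0994 CPM in SUDHL6, and at most 0.559 CPM in SUDHL16 apart from 8.61 and 5.17 CPM in CE-26. None of these 4 passed the filter in either line, so a change in them was not detectable at this depth. No efflux pump was called higher in resistant cells in either line by edgeR, DESeq2 or voom. In SUDHL6, 3 raised pumps (ABCC1, ABCC5, ABCC10) passed on adjusted p alone, and 1 in SUDHL16 (ABCC1) had an unadjusted p under 0.05. Over all genes tested, in either direction, 37.3% in SUDHL6 had an adjusted p under 0.05 and 19.1% in SUDHL16 an unadjusted one.

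**Figure D2:**
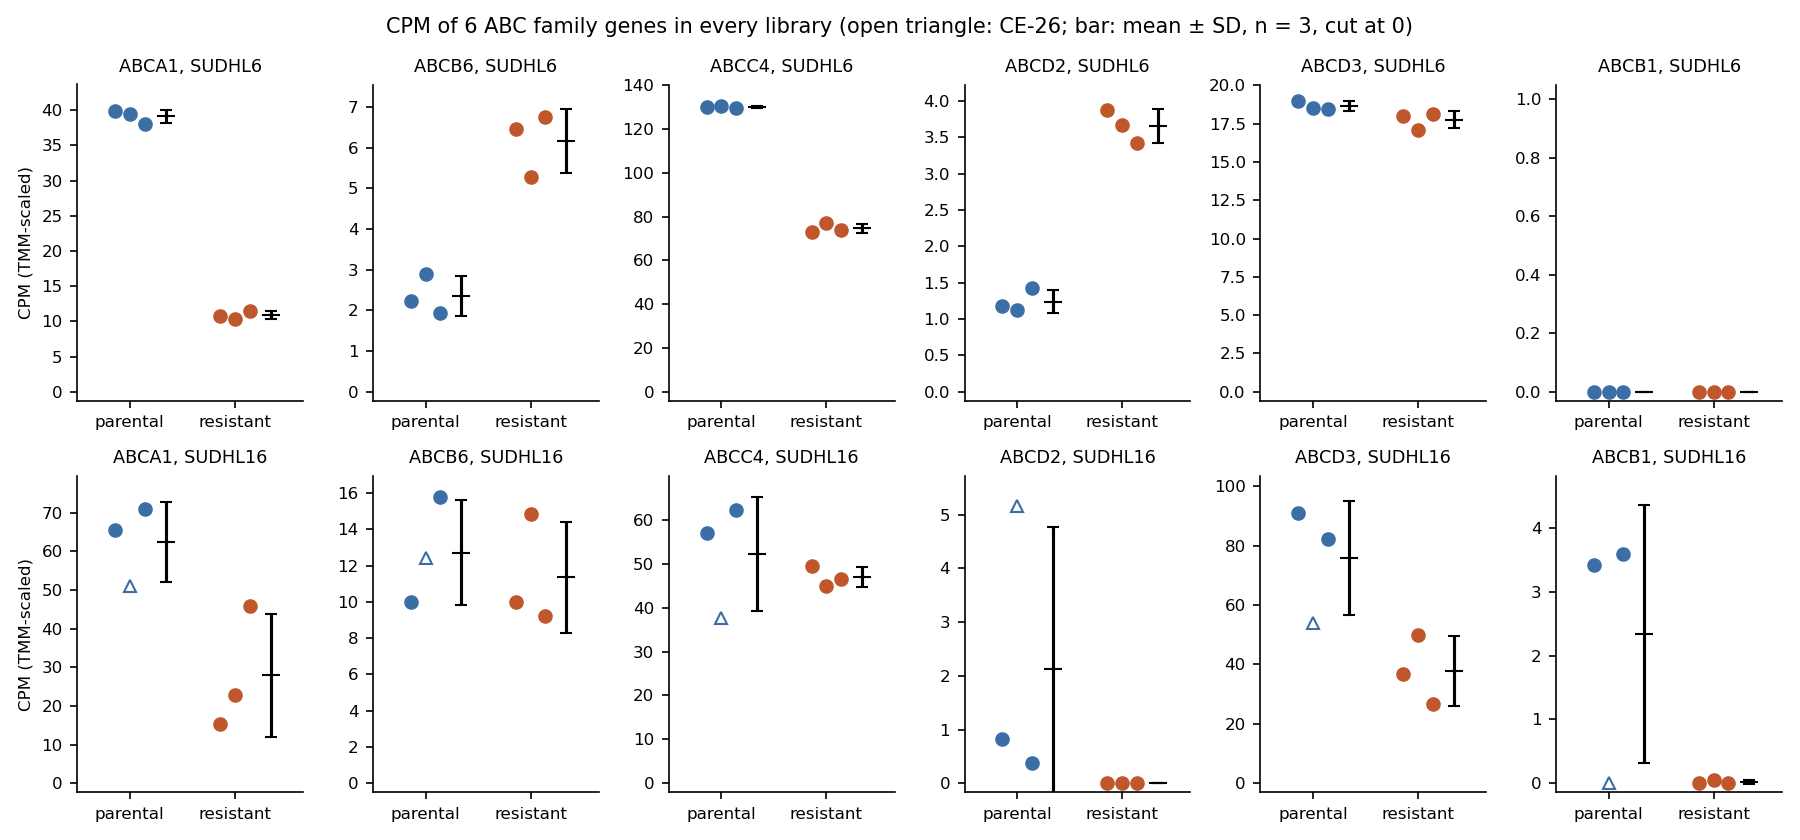
TMM-scaled CPM of 6 members in every library (points, CE-26 as an open triangle) with mean ± SD (n = 3) for parental and resistant cells of SUDHL6 (top) and SUDHL16 (bottom). The edgeR fit of SUDHL16 called ABCD3 and ABCB1 only with CE-26 left out, while CE-26 is plotted here. ABCA1, ABCB6, ABCC4 and ABCD2 in SUDHL6 separated without overlap, and ABCB1 was above 3 CPM in 2 parental SUDHL16 libraries only.

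Among the sterol and phospholipid transporters, ABCA1 was the one called in SUDHL6. It exports cholesterol and phospholipid to apolipoprotein A-I and is a classical target of the liver X receptors. Its level in SUDHL6 was 39.9, 39.5 and 38.0 CPM in parental and 10.7, 10.3 and 11.5 CPM in resistant libraries. The groups were far apart, and the level fell 3.6-fold (-1.85, SE 0.06, adjusted p = 1.98e-10). In SUDHL16 the values were 65.4, 51.0 and 70.8 CPM against 15.2, 22.8 and 45.8 CPM, again without overlap, but the resistant libraries spread widely and the difference did not pass the test (-1.16, SE 0.39, adjusted p = 0.147, and -1.28, SE 0.40, adjusted p = 0.0875 without CE-26). With CE-26 kept, ABCA1 was called under voom with quality weights (adjusted p = 0.0034) and in 1 fit of all 12 libraries (adjusted p = 0.0415). Those 2 settings called 2648 of 15708 and 2855 of 19621 genes, and no other alternative with CE-26 called ABCA1. Without CE-26 it was called under DESeq2 (adjusted p = 0.0285) and with no filter (adjusted p = 0.000204). The same held when CE-30, its highest resistant library, was also left out (adjusted p = 0.00658). The other alternatives without CE-26 did not call it. The change in ABCA1 did not differ detectably between the lines (difference 0.72, SE 0.47, adjusted p = 0.413).

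The 250 bases before the RefSeq start of ABCA1 (GRCh38.p14) are shown because this gene had the largest called fall of a member in SUDHL6. Capitals mark 4 motifs searched on both strands. These were the TATA box TATAAA, the box with the letters CCAAT, the GC box with the letters GGGCGG, and the E box with the letters CACGTG. Here and below, a match describes the letters only.
ABCA1 (chr9:104928156-104928405, minus strand): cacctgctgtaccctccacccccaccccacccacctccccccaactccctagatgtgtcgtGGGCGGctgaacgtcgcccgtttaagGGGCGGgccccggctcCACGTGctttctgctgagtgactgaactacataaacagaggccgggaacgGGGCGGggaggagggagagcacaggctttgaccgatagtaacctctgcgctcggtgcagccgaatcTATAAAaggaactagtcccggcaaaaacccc
This window held 1 TATA box, 3 GC boxes and 1 E box, motifs found in 10.7%, 42.6% and 6.34% of all 35116 promoter windows of this length, and 16 CpG dinucleotides.

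ABCA7 rose by less than the fold limit in SUDHL6, from 108, 104 and 106 CPM to 151, 145 and 145 CPM (0.47, SE 0.03, adjusted p = 4.16e-08), and overlapped between the SUDHL16 groups (0.24, SE 0.29, adjusted p = 0.728, and 0.10, adjusted p = 0.885 without CE-26). ABCG1, the partner of ABCA1 in cholesterol export to HDL, was at 1.17 to 1.58 CPM in all SUDHL6 libraries (0.09, SE 0.19, adjusted p = 0.777) and did not pass the filter in SUDHL16. ABCB4, the phosphatidylcholine transporter, passed in SUDHL16 only, where the groups overlapped (0.27, adjusted p = 0.796, and 0.12, adjusted p = 0.891 without CE-26). ABCG4, ABCG5 and ABCG8 did not pass in either line.

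ABCA5, ABCA6, ABCA8, ABCA9 and ABCA10 are lipid transporter genes that lie next to each other on the minus strand of chromosome 17. In SUDHL16 3 of them appeared in resistant cells. ABCA6 (chr17:69078702-69141895) had 0 counts in CE-25 and CE-27, 34 in CE-26, and 529, 1116 and 1352 counts in the resistant libraries. ABCA10 (chr17:69147214-69244846) had 0 in CE-25 and CE-27, 9 in CE-26, and 44, 83 and 85 in the resistant libraries. ABCA9 (chr17:68974488-69060949) had 3 and 0 in CE-25 and CE-27, 23 in CE-26, and 37, 71 and 196 in the resistant libraries. In CPM the resistant libraries were at 35.4, 52.5 and 57.5 for ABCA6, 2.95, 3.91 and 3.62 for ABCA10, and 2.48, 3.34 and 8.34 for ABCA9, whereas CE-26 was at 11.7, 3.10 and 7.92 CPM.

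With CE-26 in the comparison none of the 3 passed (adjusted p = 0.187, 0.547 and 0.795 for ABCA6, ABCA10 and ABCA9), and only ABCA6 was without overlap. In the same order the fitted log2 fold changes were 4.29 (SE 1.61), 2.21 (SE 1.69) and 1.02 (SE 1.57). Over the summed counts with CE-26 the 3 genes were 54.9-, 14.7- and 7.28-fold higher in resistant cells. Per kb of exon, CE-26 had 2.4 counts on ABCA6, 1.07 on ABCA10 and 2.55 on ABCA9, beside a median of 1.60 over the 6829 protein-coding genes with at most 3 counts in CE-25 and in CE-27. Without CE-26 all 3 were called, and all 3 passed the filter there only through the resistant libraries. ABCA6 was at least 576-fold higher (adjusted p = 0.000122) and ABCA10 at least 40.8-fold higher (adjusted p = 0.00255) in resistant cells, against a floor of 3 counts over the parental group. ABCA9 was 58.5-fold higher (95% exact counting interval 19.8 to 285, adjusted p = 0.0131), and its fitted log2 fold change ranged from 4.79 without CE-27 to 9.49 without CE-25, where no parental count was left and the fitted value is no bound. Under voom with quality weights, all 3 were called with CE-26 kept (adjusted p = 6.6e-05, 0.000734 and 0.00887 for ABCA6, ABCA10 and ABCA9), and with no filter ABCA6 alone was (adjusted p = 0.0271). In SUDHL6, ABCA6 was at 0 in every library, ABCA9 had at most 0.099 CPM and ABCA10 at most 0.148 CPM.

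The other genes of the cluster were not called. ABCA5 was at 0.661, 8.27 and 1.55 CPM in parental and 0, 1.18 and 0 CPM in resistant SUDHL16 libraries, with overlap and CE-26 the highest (-3.03, SE 1.71, adjusted p = 0.39). Without CE-26 the fitted change was smaller, 2.74-fold in place of 8.17-fold (-1.45, SE 1.52, adjusted p = 0.652). It rose by less than the fold limit in SUDHL6, from 7.75, 8.20 and 8.18 CPM to 12.4, 11.2 and 11.9 CPM (0.56, SE 0.08, adjusted p = 0.000112). ABCA8 was at or below 0.276 CPM in SUDHL16 outside CE-26 (10.7 CPM) and did not pass in either line. Of the protein-coding genes outside the family that start within 1 Mb of ABCA6, 5 passed the filter without CE-26, and 3 of these were higher in resistant cells (median log2 fold change 0.21). WIPI1 (1.92, adjusted p = 0.0123) and ARSG (1.04, adjusted p = 0.0479) were called higher, beside 6.73% of all genes tested. ABCA10 and ABCA5 overlap on the same strand, and ABCA9 lies over the antisense gene ABCA9-AS1. The genes of this cluster are also close paralogs, so reads in shared stretches cannot be assigned with certainty.

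**Figure D3:**
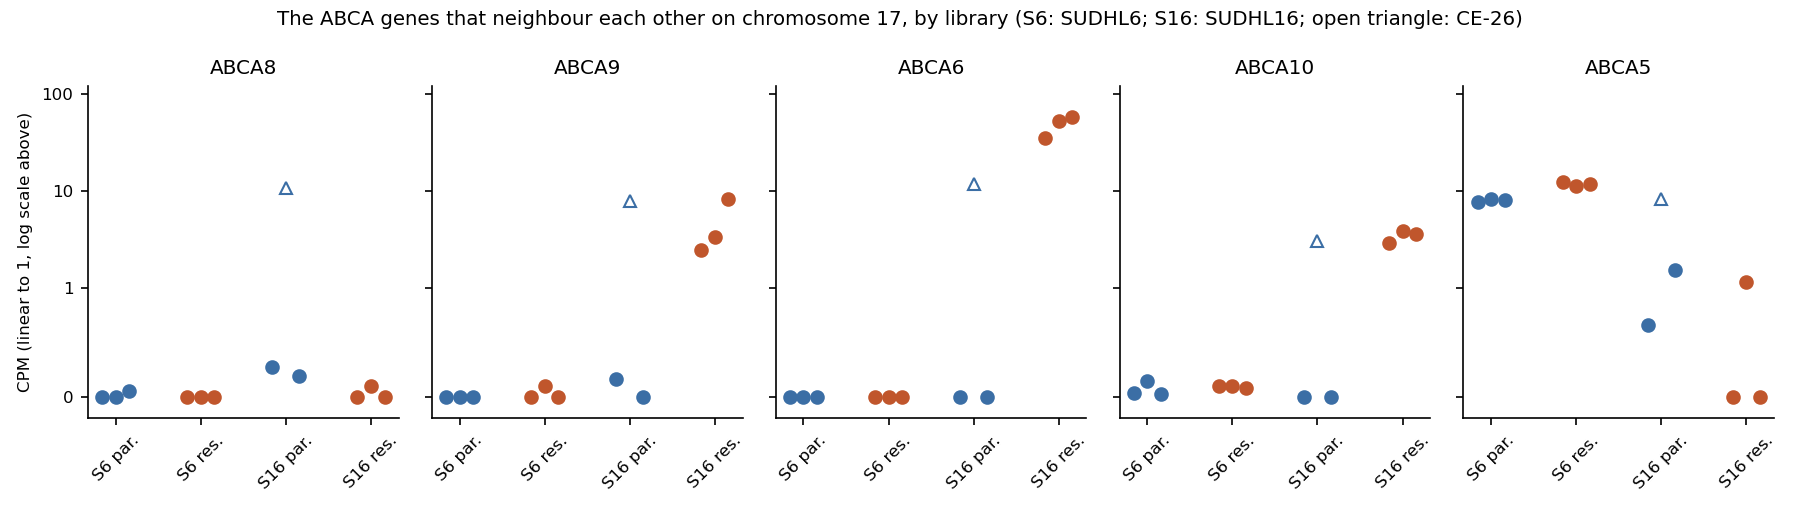
CPM in every library (linear to 1 and on a log scale above) of the 5 neighbouring ABCA genes on chromosome 17, in the order in which they lie, for parental (blue) and resistant (orange) cells, with CE-26 as an open triangle. ABCA6, ABCA9 and ABCA10 were above 2 CPM in all 3 SUDHL16-resistant libraries and at or near 0 in SUDHL6 and in the parental libraries CE-25 and CE-27.

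The promoters of ABCA6, ABCA9 and ABCA10 are shown because these genes were called higher without CE-26, and that of ABCB1 because it was called lower there. Capitals mark the same motifs. For ABCA10 the upstream and for ABCB1 the downstream of 2 RefSeq starts was taken.
ABCA6 (chr17:69141896-69142145, minus strand): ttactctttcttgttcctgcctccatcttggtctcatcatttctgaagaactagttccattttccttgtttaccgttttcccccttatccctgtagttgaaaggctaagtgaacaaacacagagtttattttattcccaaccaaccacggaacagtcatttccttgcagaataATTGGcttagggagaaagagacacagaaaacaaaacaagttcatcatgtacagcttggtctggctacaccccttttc
ABCA9 (chr17:69060928-69061177, minus strand): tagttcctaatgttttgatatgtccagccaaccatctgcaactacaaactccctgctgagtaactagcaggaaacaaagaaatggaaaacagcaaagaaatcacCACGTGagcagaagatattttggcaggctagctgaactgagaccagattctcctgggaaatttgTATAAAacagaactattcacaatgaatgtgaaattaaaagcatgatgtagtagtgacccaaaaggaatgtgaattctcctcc
ABCA10 (chr17:69244849-69245098, minus strand): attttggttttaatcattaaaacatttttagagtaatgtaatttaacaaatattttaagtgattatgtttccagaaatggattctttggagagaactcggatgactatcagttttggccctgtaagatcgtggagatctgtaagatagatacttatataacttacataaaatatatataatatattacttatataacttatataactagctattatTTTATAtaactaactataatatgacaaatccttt
ABCB1 (chr7:87600885-87601134, minus strand): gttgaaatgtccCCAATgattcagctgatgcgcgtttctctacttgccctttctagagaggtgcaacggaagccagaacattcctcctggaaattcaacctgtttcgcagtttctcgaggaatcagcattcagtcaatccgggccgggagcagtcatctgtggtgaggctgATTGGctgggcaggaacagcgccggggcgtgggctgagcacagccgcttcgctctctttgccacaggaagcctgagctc
The ABCA6, ABCA9 and ABCA10 windows were poor in G and C (40.8%, 39.2% and 23.6%) and held 2, 1 and 2 CpG dinucleotides, and a count this low or lower was found in 22.9%, 14.7% and 22.9% of all promoter windows. ABCA9 held a TATA box and an E box, ABCA10 a TATA box on the other strand, and ABCA6 a CCAAT box on the other strand, a motif in 32.01% of windows. The ABCB1 window had 12 CpG dinucleotides and 2 CCAAT boxes, of which the one nearer the start is on the other strand. A promoter was matched by symbol for 35 of the 43 members.

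The remaining lipid transporters were low. ABCA3, the surfactant lipid transporter, fell by less than the fold limit in SUDHL6 (7.02, 6.40 and 7.87 CPM to 4.80, 5.52 and 4.63 CPM, -0.51, SE 0.11, adjusted p = 0.00355). ABCA2 turned direction with CE-26 in SUDHL16, from -2.08 (SE 1.697) to 3.06 (SE 1.18, adjusted p = 0.158) without it. It was called with no filter without CE-26 (adjusted p = 0.0179) and under no other setting. ABCA4, ABCA8, ABCA12 and ABCA13 did not pass the filter.

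ABCB6, ABCB8 and ABCB10 are transporters of mitochondria, linked to heme and iron-sulfur cluster metabolism, and ABCB6 is also found in other membranes. ABCB6 rose in SUDHL6, from 2.23, 2.89 and 1.94 CPM to 6.46, 5.27 and 6.75 CPM. The groups did not overlap and the rise was 2.62-fold (1.39, SE 0.16, adjusted p = 1.92e-05). In SUDHL16 ABCB6 was at 9.97, 12.4 and 15.8 CPM against 9.98, 14.9 and 9.23 CPM, which overlapped (-0.16, SE 0.35, adjusted p = 0.862, and -0.17, SE 0.35, adjusted p = 0.831 without CE-26). ABCB8 (0.28) rose and ABCB10 (-0.31) fell in SUDHL6 on p alone, ABCB10 from 55.3, 58.4 and 54.0 CPM to 44.4, 44.8 and 45.9 CPM (SE 0.04, adjusted p = 2.38e-05). Neither was called in SUDHL16, where the fitted change was 0.03 for ABCB8 (-0.21 without CE-26) and 0.18 for ABCB10 (0.17 without CE-26), with overlap. Of 26 genes of heme and iron-sulfur metabolism, all of which passed the filter, edgeR called 0 in either line, although the unadjusted p was under 0.05 for 12 (SUDHL6) and 4 (SUDHL16) of them and DESeq2 called 0 and 3. Over all genes tested, the unadjusted p was under 0.05 for 45.2% in SUDHL6, 19.1% in SUDHL16 and 23.3% in SUDHL16 without CE-26, and DESeq2 called 7.84%, 11.3% and 15.7%, shares against which the counts of this kind here and below are read. Without CE-26 in SUDHL16, edgeR called 1 of the 26, HMOX1, heme oxygenase (3.93, adjusted p = 0.0479).

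ABCD2 and ABCD3 carry fatty acids into peroxisomes. ABCD2 rose in SUDHL6, from 1.175, 1.121 and 1.43 CPM to 3.88, 3.66 and 3.41 CPM (1.55, SE 0.16, adjusted p = 6.39e-06). In SUDHL16 it had 15, 15 and 6 counts in CE-25, CE-26 and CE-27 (0.827, 5.17 and 0.372 CPM) and none in the resistant libraries. Against a floor of 3 counts over the resistant group, ABCD2 was at least 12.1-fold lower without CE-26 and at least 19.3-fold lower with it. It did not pass the filter within SUDHL16. With no filter its adjusted p was 0.181 with CE-26 and 0.0284 without, and it was called in the fit of all 12 libraries (adjusted p = 0.00389). In that same fit, which also gave the difference between the lines, the rise of ABCD2 in SUDHL6 was not called (adjusted p = 0.998). Its difference between the lines was called (adjusted p = 0.00558), beside 7.16% of 19621 genes called in that test, as was that of ABCB6 (-1.52, SE 0.39, adjusted p = 0.0397), a call lost under 10 of 16 alternatives (adjusted p up to 0.172). ABCD3 was lower in SUDHL16, from 90.9, 54.1 and 82.4 CPM to 36.7, 49.97 and 26.6 CPM. It was not called with CE-26, the lowest parental library (-1.01, SE 0.31, adjusted p = 0.111, although DESeq2 called it at 0.0303), and was called without it (-1.19, SE 0.27, adjusted p = 0.0296), although that call was lost when CE-25, CE-27 or CE-28 was also left out. In SUDHL6 ABCD3 was at 17.1 to 18.1 CPM in resistant libraries and no lower than 18.46 CPM in parental libraries (-0.07, SE 0.06, adjusted p = 0.382). Of 28 other peroxisome genes, 26 passed the filter, and 1 was called in SUDHL6 (PEX10, a peroxisome import ligase, at -0.59, adjusted p = 0.000957) and 0 in SUDHL16 by edgeR with or without CE-26, where 3 had an unadjusted p under 0.05 and DESeq2 called 2 with and 3 without CE-26.

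In SUDHL6 the fall of ABCC4 was shared by the genes around it. Of the protein-coding neighbours of ABCC4 (chr13:95019835-95301475) within 1 Mb, 3 of the 4 that passed the filter, GPR180, TGDS and DNAJC3, were called lower (median -0.72) and the remaining gene, UGGT2, was also lower (-0.31) and was the gene called lower around ABCC4 in SUDHL16 (-2.64). The neighbours of the other called members in SUDHL6 were near 0 in the median for ABCB6 (0.07 over 34 genes, with WNT10A called higher at 1.13 and WNT6 and TMEM198 called lower at -0.71 and -0.69) and at -0.22 for ABCA1 (7 genes, 0 called), around which SLC44A1 was called lower in SUDHL16 (-2.61). ABCD2 had 3 neighbours tested in SUDHL6, with LRRK2 called higher (1.52), and 1 in SUDHL16, SLC2A13, which was called lower (-5.79). Around ABCB1 in SUDHL16, 1 of 8 neighbours was called, ADAM22, which was lower (-3.36, and -3.35 without CE-26). The median over the 8 was 0.02 with 4 higher, and -0.01 without CE-26. Around ABCD3 in SUDHL16, 0 of 7 neighbours were called, and 2 were higher with a median of -0.67 (1 higher and -0.53 without CE-26). Over all genes tested, 8.96% were called in SUDHL6, 5.30% in SUDHL16 and 10.0% in SUDHL16 without CE-26. Whether the changes of these neighbours and of the members share a source was not tested.

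None of the soluble members ABCE1, ABCF1, ABCF2 and ABCF3 was called. ABCE1 was at 198, 199 and 196 CPM against 200.3, 205 and 205 CPM in SUDHL6 (0.04, SE 0.02, adjusted p = 0.147) and at 152, 78.9 and 118 CPM against 74.6, 111 and 88.3 CPM in SUDHL16, with overlap (-0.36, SE 0.30, adjusted p = 0.589). Without CE-26 the ABCE1 groups did not overlap (-0.56, SE 0.24, adjusted p = 0.202). ABCF1 was slightly lower in SUDHL6 on p alone (300.2, 291 and 304 CPM to 274, 280.5 and 274 CPM, -0.11, SE 0.02, adjusted p = 0.00144) and overlapped in SUDHL16 (-0.08, SE 0.23, adjusted p = 0.891, and -0.05, adjusted p = 0.929 without CE-26). ABCF2 was lower (-0.18, adjusted p = 0.000501) and ABCF3 higher (0.17, adjusted p = 0.0093) in SUDHL6, both under the fold limit. Neither was called in SUDHL16, where the fitted change was -0.33 for ABCF2 (-0.44 without CE-26, when the groups did not overlap) and 0.07 for ABCF3 (-0.08 without CE-26). Of 23 partner genes of ribosome recycling and termination, edgeR called 0 in SUDHL6 and 0 in SUDHL16 (8 and 5 at an unadjusted p under 0.05, 0 and 3 by DESeq2), and 2 without CE-26, EIF2S2 (1.77) and EIF3J (-1.03). ABCD4 overlapped between groups in SUDHL6 (0.06, adjusted p = 0.272). In SUDHL16 it was at 44.9, 105 and 46.7 CPM in parental and 51.4, 47.9 and 47.5 CPM in resistant libraries, with overlap and CE-26 the highest (-0.41, SE 0.34, adjusted p = 0.591), and without CE-26 the fitted direction turned and the groups no longer overlapped (0.11, SE 0.20, adjusted p = 0.815). ABCB9, a lysosomal peptide transporter, was slightly higher in SUDHL6 (0.56, SE 0.20, adjusted p = 0.043) and lower in SUDHL16 with overlap (-1.06, SE 0.38, adjusted p = 0.172, and -0.65, SE 0.32, adjusted p = 0.276 without CE-26). Of 10 cobalamin and lysosome partners, edgeR and DESeq2 called 0 in either line (9 and 1 of the 9 tested were at an unadjusted p under 0.05), and edgeR called 1 without CE-26, MMAB (0.89). ABCC6, ABCC8, ABCC9, ABCC12 and ABCB11, transporters or channel regulators of other tissues, had at most 0.764 CPM outside CE-26.

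Of 20 genes of sterol efflux and liver X receptor signalling, 15 passed the filter in each line, counted separately. In SUDHL6 2 of the 15 were called, beside 8.96% of all genes, and both were lower, NPC1, the lysosomal cholesterol exporter (-0.82, adjusted p = 1.25e-08), and LPCAT3 (-0.62, adjusted p = 4.94e-06), with a median of -0.13. In SUDHL16 3 of the 15 were called, all higher, beside 5.30% of all genes (3.20% raised): PLTP, the phospholipid transfer protein (1.97, adjusted p = 0.0067), SREBF1, which drives lipid synthesis (1.53, adjusted p = 0.0219), and SCARB1, the HDL receptor (5.82, adjusted p = 0.0293, and 7.81 without CE-26), with a median of 0.77 and 13 of 15 higher. Without CE-26, RXRA, the partner of the liver X receptors, was called as well (0.219 against 10.6 CPM, adjusted p = 0.000453). Its parental level was near the floor of 3 counts (0.175 to 0.198 CPM per library), and it passed the filter there only through the resistant libraries. Of 24 genes of drug conjugation and metabolism, 4 of 17 tested were called higher in SUDHL6, beside 4.31% of all genes, among them MVP, the major vault protein (0.92, adjusted p = 1.26e-07), GSTM1, a glutathione transferase (1.115, adjusted p = 0.00535), and SULT1A1, a sulfotransferase (0.86, adjusted p = 0.00575). In SUDHL16 1 of 16 tested was called, beside 5.30%, MGST2, a microsomal glutathione transferase, which fell from 10.98 to 0.913 CPM (-3.59, adjusted p = 0.00471), and without CE-26 GCLC, a subunit of the glutathione synthesis enzyme, was called lower too (-0.81).

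Of 16 transcription regulators of efflux genes, 1 of 13 tested was called in SUDHL6 and 3 of 12 tested in SUDHL16, beside 8.96% and 5.30% of all genes. AHR, the aryl hydrocarbon receptor, rose in SUDHL6 from 12.05 to 18.2 CPM (0.60, adjusted p = 9.98e-05) and fell in SUDHL16 from 257 to 2.46 CPM (-6.71, adjusted p = 0.00244, and from 121 to 2.63 CPM, -5.55, without CE-26). CEBPB (2.56, adjusted p = 0.00113) and HIF1A (1.38, adjusted p = 0.0391) rose in SUDHL16, and MAFG was lower without CE-26 (-1.30, adjusted p = 0.0138). TAP1, TAP2 and CFTR belong to the ABC family under other symbols. TAP1, which with TAP2 carries peptides for HLA class I loading, rose in SUDHL16 from 16.6, 17.2 and 21.4 CPM to 78.5, 73.4 and 89.4 CPM (2.12, SE 0.23, adjusted p = 0.00176, and 2.09 without CE-26) and in SUDHL6 by less than the fold limit (0.35, SE 0.06, adjusted p = 0.000366). TAP2 overlapped in SUDHL16 (0.29, adjusted p = 0.62, and 0.12 without CE-26) and was slightly higher in SUDHL6 (0.17, adjusted p = 0.00046). CFTR was at most 0.11 CPM in every library but CE-26 (3.79 CPM).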

How the data were processed

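RNA-sequencing libraries of parental and venetoclax-resistant SUDHL6 and SUDHL16 cells (3 per group) were read as the raw counts per Ensembl gene that the authors deposited. The authors trimmed adapters with Trim Galore, aligned to GRCh38 with HISAT2 and assembled transcripts with StringTie. The counting step, its annotation and its use of strand are not given in the sources used here. Symbols, positions and merged exon lengths came from GENCODE 44, which matched 56558 of 60675 identifiers, and promoters from RefSeq (GRCh38.p14).

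Each line was fitted alone with edgeR 4.0.16 (R 4.3.3): filterByExpr, TMM scaling, glmQLFit and two-sided glmQLFTest, Benjamini-Hochberg adjustment over all genes tested, called at an adjusted p under 0.05 and 1.5-fold. The difference between lines was the interaction term over all 12 libraries. The SE given is the absolute log2 fold change divided by the square root of the F statistic of the test. It is therefore derived from the test and is no separate measure of precision. Levels are TMM-scaled CPM. No libraries had identical counts. Depth limits low genes: 3 counts in a library equal 0.0737 to 0.0885 CPM in SUDHL6, 0.128 to 0.201 in resistant SUDHL16 and up to 1.03 in CE-26. Intervals and floors cover counting error only.

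Alternatives were DESeq2 1.42.0, voom with quality weights (limma 3.58.1), upper-quartile scaling, library totals, no filter, protein-coding genes only, glmTreat, 1 fit of all 12 libraries and leaving out each library. The edgeR fits within a line and of the difference between lines were also run on simulated counts with known changes. The alternatives were not run on them. All simulated libraries of a line had the same expected gene proportions before changes were added, so the composition of CE-26 was not reproduced. Members, role groups and partner lists were chosen with earlier results of these data known. Named were members called in any comparison, all efflux pumps, the highest member per length of each subfamily, TAP1, TAP2, CFTR and at most 3 called genes per partner list and line. Of the 45 members, 2 are not reported here, nor is 1 partner gene, and all counts leave them out. Other named genes (ABCA2, ABCA3, ABCA5, ABCB4, ABCB8, ABCB9 and the neighbours) were chosen after their values were seen.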

Additional observations from a re-analysis of the deposited data

Results flagged for a closer look

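The change with resistance was called different between the lines for 2 members, by the edgeR interaction test over all 12 libraries (SUDHL16 change minus SUDHL6 change). Only members that passed the count filter over the 12 libraries were tested. Over all 19621 genes tested, 7.16% were called. For ABCB6 the difference was -1.52 on the log2 scale (SE 0.39, adjusted p = 0.0397), with all 3 resistant libraries above the parental ones in SUDHL6 and overlapping groups in SUDHL16. That call was lost under 10 of 16 alternatives (adjusted p up to 0.172). For ABCD2 it was -9.89 (adjusted p = 0.00558), a fitted value that depends on the prior count because resistant SUDHL16 libraries had no count, so it is no bound on the fold. In the same fit the change of ABCD2 was called in SUDHL16 (adjusted p = 0.00389) and not in SUDHL6 (adjusted p = 0.998).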

How the results depend on the processing

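Results were recomputed under each alternative named for them, and no called value reversed its direction. The 4 calls in SUDHL6 fell to 1 (ABCA1) when all 12 libraries were fitted together, which lends the wider spread of SUDHL16 to SUDHL6. Calls over all genes fell in that fit as well, from 1493 of 16662 to 140 of 19621. With a library left out, the SUDHL6 calls of members ranged from 4 to 6. The 0 calls in SUDHL16 became 1 under DESeq2, 1 with no filter, 5 under voom with quality weights and 4 in the fit of all 12. With a library left out they ranged from 0 to 5, 5 being without CE-26. Calls over all genes moved too, from 833 of 15708 to 1775 under DESeq2 and 2648 under voom. They were 898 of 41969 with no filter, 2855 of 19621 in the fit of all 12 and 1636 of 16280 without CE-26. The 5 calls without CE-26 became 8 with no filter, beside 2575 of 31564 genes in place of 1636 of 16280. They ranged from 4 to 6 with a resistant library also left out (an alternative chosen after seeing the data). The 2 differences between lines became 5 under DESeq2 and 1 with no filter, and ranged from 1 to 6 with a library left out. The value was 6 without CE-26, when ABCD3, ABCC10, ABCB9 and ABCA10 were added, and 1 (ABCD2) without any single SUDHL6 library, CE-27, CE-28 or CE-30. Over all genes the difference was called for 1404 of 19621, for 2821 under DESeq2, 841 of 46002 with no filter and 2805 of 20959 without CE-26. The median log2 fold change of members in SUDHL6 (0.17) was 0.18 under upper-quartile scaling, 0.19 with no filter and 0.12 to 0.19 with a library left out. In SUDHL16 (-0.16) it was -0.26 under upper-quartile scaling, -0.071 with library totals, -1.06 with no filter and -0.39 to -0.089 with a library left out. The median of all genes in SUDHL16 moved to -0.11, 0.11 and -1.18 under these 3 settings. Partner genes called rose in SUDHL16 from 7 to 20 under DESeq2 and to 14 without CE-26, while calls over all genes rose from 5.30% to 11.3% and 10.0%. With canonical transcript length the highest level per kb was 87.7, 81.1, 29.97 and 23.5 in SUDHL6-parental, SUDHL6-resistant, SUDHL16-parental and SUDHL16-resistant cells, the last being ABCE1 in place of ABCF1. Of the 7 neighbours of ABCD3 tested in SUDHL16, 2 were higher with CE-26 and 1 without it. Causes were not tested. No paired analysis was possible because the labels carry no replicate numbers.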
